A study of Mus musculus with 35 samples.

Results

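A set of 10 genes of skeletal muscle was followed through mouse medullary thymic epithelial cells (mTECs): Myog, Myod1, Chrna1, Acta1, Actc1, Ckm, Myl1, Tnnt3, Ttn and Des. They were chosen by name, as 10 of the 21903 genes with a symbol on the array. All 26 probes annotated to them were taken, of 46089 probes in all. Every one of the 10 genes had a probe that passed the filter on dim signals, which asked for detection (a detection p-value under 0.05) on at least 2 arrays of 1 group, and 23 of their probes passed it. The filtered table held 18090 genes.

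The mTECs were isolated by FACS and their RNA was hybridised to Illumina bead arrays. Positive cells were compared with negative cells in 6 sorts. Antibodies to Pdpn, Gp2, Cea1 or Tspan8 defined 4 of the sorts, and reporter mice for Gad1 or Ins2 defined the other 2. Each of the 12 groups had 3 arrays, except for 2 of Gp2-positive cells and 2 usable of Ins2-negative cells, so 34 arrays were fitted. The labels give no strain, age, sex, gate or reporter construct, and no sign of whether replicates came from separate animals, so the p-values measure only the spread between these samples, which may be technical. None of the 12 groups is labelled as muscle.

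Skeletal muscle genes are switched on in myoblasts by the myogenic factors MyoD and myogenin, which bind short sequences called E-boxes, together with MEF2 proteins and serum response factor. The muscle form of the nicotinic acetylcholine receptor sits under the motor nerve ending, and its alpha subunit, encoded by Chrna1, is the main target of autoantibodies in myasthenia gravis, a disease in which the thymus is often altered. mTECs transcribe many genes that are otherwise restricted to other tissues and so display their products to developing T cells, in part through the regulator Aire.

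The question of each comparison was whether muscle genes were transcribed with or without the sorted antigen. Values are normalized log2 signals, on which an offset of 16 places undetected probes a little above 4, and differences are positive minus negative cells in log2 units, each given with its SE, the standard error from limma. A difference was called at an adjusted p under 0.05 over all 18090 genes of the sort. Muscle genes were mostly lower in the positive cells. Of 60 pairs of a member and a sort, 31 were lower, 5 were higher and 24 were not called. Called lower in at least 3 sorts were 7 of the 10 members and 19.4% of all genes, and called higher in at least 3 were 0 members and 14.0% of all genes. In either direction, 43.0% of all genes were called in the Tspan8 sort, 39.0% in the Gp2, 38.4% in the Gad1, 37.3% in the Pdpn, 34.5% in the Ins2 and 29.0% in the Cea1 sort.

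Tspan8-positive cells had 8 of the 10 members lower and 0 higher, where 23.9% of all genes were called lower and 19.1% higher. Gp2-positive cells had 8 lower and 0 higher (21.0% of all genes lower, 18.0% higher), and Pdpn-positive cells had 7 lower and 0 higher (19.1% lower, 18.2% higher). Cea1-positive cells had 4 lower and 1 higher (15.6% lower, 13.4% higher), and Ins2-positive cells had 2 lower and 0 higher (17.7% lower, 16.8% higher). Gad1-positive cells had 4 members higher and 2 lower, where 19.2% of all genes were called in each direction. The members' median difference was -1.66 in the Gp2 sort, -1.36 in the Tspan8 sort, -0.77 in the Pdpn sort, -0.41 in the Ins2 sort, -0.36 in the Cea1 sort and 0.26 in the Gad1 sort. The median over all genes lay between -0.04 and 0.00 in the 6 sorts.

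Leaving out 1 array moved the count of members called lower or higher in all 6 sorts, by over 1.5 times in 3 of them. In the Pdpn sort 4 members were called lower without Pdpn-positive replicate 2, and likewise 4 without Pdpn-positive replicate 3. In the Cea1 sort 2 were called lower without Cea1-negative replicate 1. In the Ins2 sort 1 was called lower without Ins2-negative replicate 1 or without Ins2-positive replicate 2, and 3 without Ins2-negative replicate 3 or without Ins2-positive replicate 1. The Ins2 count also depended on the scaling. With each array scaled to its median in place of quantile normalization, 7 members were called lower in Ins2-positive cells. The median of all genes in that sort was then -0.25, and 16.9% of the called genes were higher, against 48.6% with quantile normalization. Every call gained with median scaling in the Ins2 sort is to be read beside these values.

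**Figure D1:**
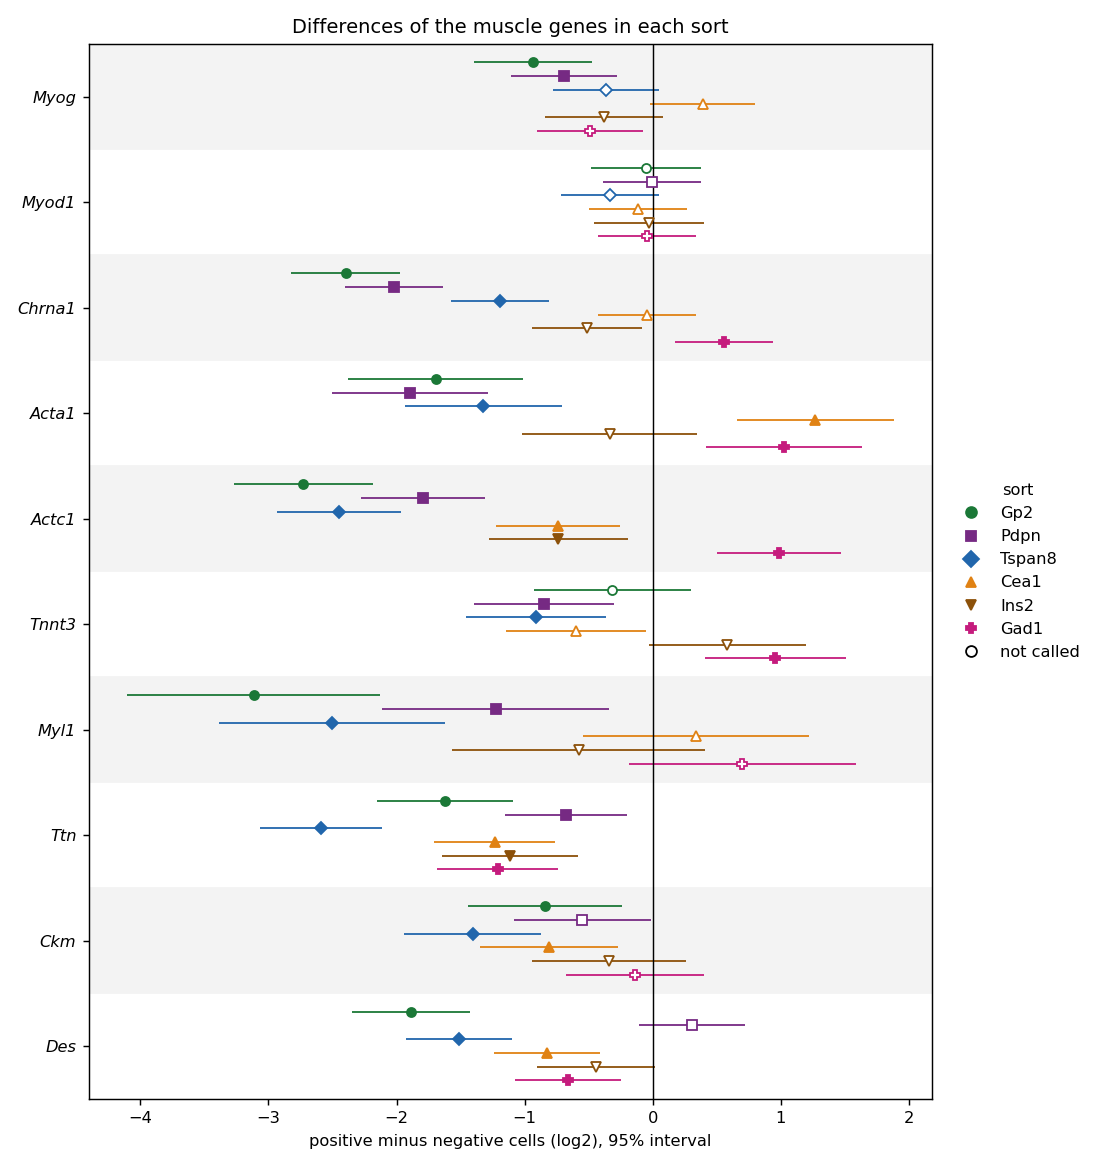
Difference of each muscle gene in each sort, on the horizontal axis as positive minus negative cells (log2), with genes down the page and the 6 sorts as coloured symbols. Filled symbols were called at an adjusted p under 0.05, open ones were not, and bars are 95% intervals of the limma fit. Most filled symbols lie left of 0, those of the Gp2, Pdpn and Tspan8 sorts farthest, while 4 of the 5 filled symbols right of 0 belong to the Gad1 sort.

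Several facts of the series bear on these values. Between 47.1% and 60.8% of probes were detected per array, and replicates correlated at 0.977 to 0.993 (Pearson, across probes). Positive cells had more transcript of the sorted antigen in each sort, with differences of 0.66 (Gad1) to 4.80 (Tspan8) and Ceacam1 taken for Cea1. The 2 Gp2-positive arrays stood apart from each other, with replicate 1 below replicate 2 by over 1 log2 unit for Acta1, Myl1 and Des. On Ins2-positive replicate 3 the signal of Myl1 was far above that on the other 2 arrays of its group. In these bulk samples, fewer cells of a type and less RNA per cell cannot be told apart.

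Markers of other cells moved with some sorts. In Gp2-positive cells all 8 thymocyte genes tested were called higher, with a median signal of 9.25 to 9.78 per Gp2-positive array and 5.02 to 6.14 per Gp2-negative array. Of 8 cortical epithelial genes 7 were also higher there, with medians of 8.83 to 9.15 on Gp2-positive and 5.73 to 6.28 on Gp2-negative arrays. Pdpn-positive cells had 7 of 8 fibroblast genes higher, with medians of 7.24 to 7.59 on Pdpn-positive and 5.22 to 5.29 on Pdpn-negative arrays, and Pdgfra, a receptor that marks fibroblasts, was detected on 3 Pdpn-positive arrays and on 0 of 3 Pdpn-negative arrays. All 6 genes of immature, CCL21-type mTECs were higher in Pdpn-positive cells as well, but Pdpn, the antigen of the sort, is itself among the 6. In Cea1-positive cells 4 of 7 endothelial genes were higher and 0 lower, with medians of 5.52 to 6.49 on Cea1-positive and 4.53 to 4.96 on Cea1-negative arrays, and 5 of the 6 CCL21-type genes were lower and 1 higher. The part of these cells in the muscle gene values was not tested. Aire itself was lower in the positive cells of the Tspan8 (-2.76), Gp2 (-2.26), Pdpn (-1.32) and Cea1 (-0.96) sorts, its difference in the Gad1 sort was -0.10, and its call in the Ins2 sort (-0.47, adjusted p = 0.0283) was lost without Ins2-negative replicate 1 (-0.32, adjusted p = 0.302).

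Myogenin, encoded by Myog, drives the late step of muscle differentiation. Its signal on the 3 arrays of Pdpn-positive cells was 4.95, 5.33 and 4.80, against 5.80, 5.79 and 5.55 on those of Pdpn-negative cells. All 3 positive arrays lay below all 3 negative ones, and the difference of -0.69 (SE 0.20) was called with limma (adjusted p = 0.00648). In the Gp2 sort it was 4.32 and 4.33 in positive cells, not detected on either array, against 5.10, 5.35 and 5.34 in negative cells. With a floor for dim arrays, Myog was 1.78-fold lower in Gp2-positive cells. The floor takes for each dim array the higher of the probe's own signal and the lowest signal of any detected probe. Such a fold does not allow for the spread between arrays, so a smaller one is possible. The limma difference, without the floor, was -0.94 (95% interval -1.40 to -0.48, adjusted p = 0.00107). Myog was not called in the other 4 sorts. Its differences there ran from -0.49 in the Gad1 sort (adjusted p = 0.0535) to 0.39 in the Cea1 sort (adjusted p = 0.159). In the Ins2 sort, though, it was called with median scaling (-0.75, adjusted p = 0.0105). The Tspan8 groups did not overlap (-0.37, adjusted p = 0.153), and Myog was called there with the authors' normalized values of the same arrays (-0.20, adjusted p = 0.00907).

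Some of the Myog calls turned on single arrays. The Pdpn call was lost without Pdpn-positive replicate 3 (-0.58, adjusted p = 0.0504). In the Gad1 sort Myog became called without Gad1-negative replicate 1 (-0.76, adjusted p = 0.00349), without Gad1-positive replicate 3 (-0.61, adjusted p = 0.0350), and with the replicate number as a block (adjusted p = 0.0448). A second Myog probe, detected on 22 arrays, was called only in the Gad1 sort, with mean signals of 4.24 in Gad1-positive cells (detected on 0 of 3 arrays) and 5.07 in Gad1-negative cells (1 of 3). With the mean of both probes, the calls in the Pdpn sort (-0.21, adjusted p = 0.480) and the Gp2 sort (-0.53, adjusted p = 0.0670) were lost.

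MyoD, encoded by Myod1, is the factor that commits cells to the muscle lineage. Its single probe was detected on 6 of 34 arrays. These were replicate 1 of both Gad1 groups and of both Ins2 groups, and replicates 1 and 3 of Tspan8-negative cells, with signals of 4.57 to 4.96. Myod1 was called in none of the 6 sorts with limma (differences -0.34 to -0.01, adjusted p = 0.162 to 0.987), and the lone change under removal of an array was in the Tspan8 sort without Tspan8-negative replicate 2 (-0.50, adjusted p = 0.0473). At this signal no difference between the groups of a sort was detectable beyond the spread of the arrays.

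**Figure D2:**
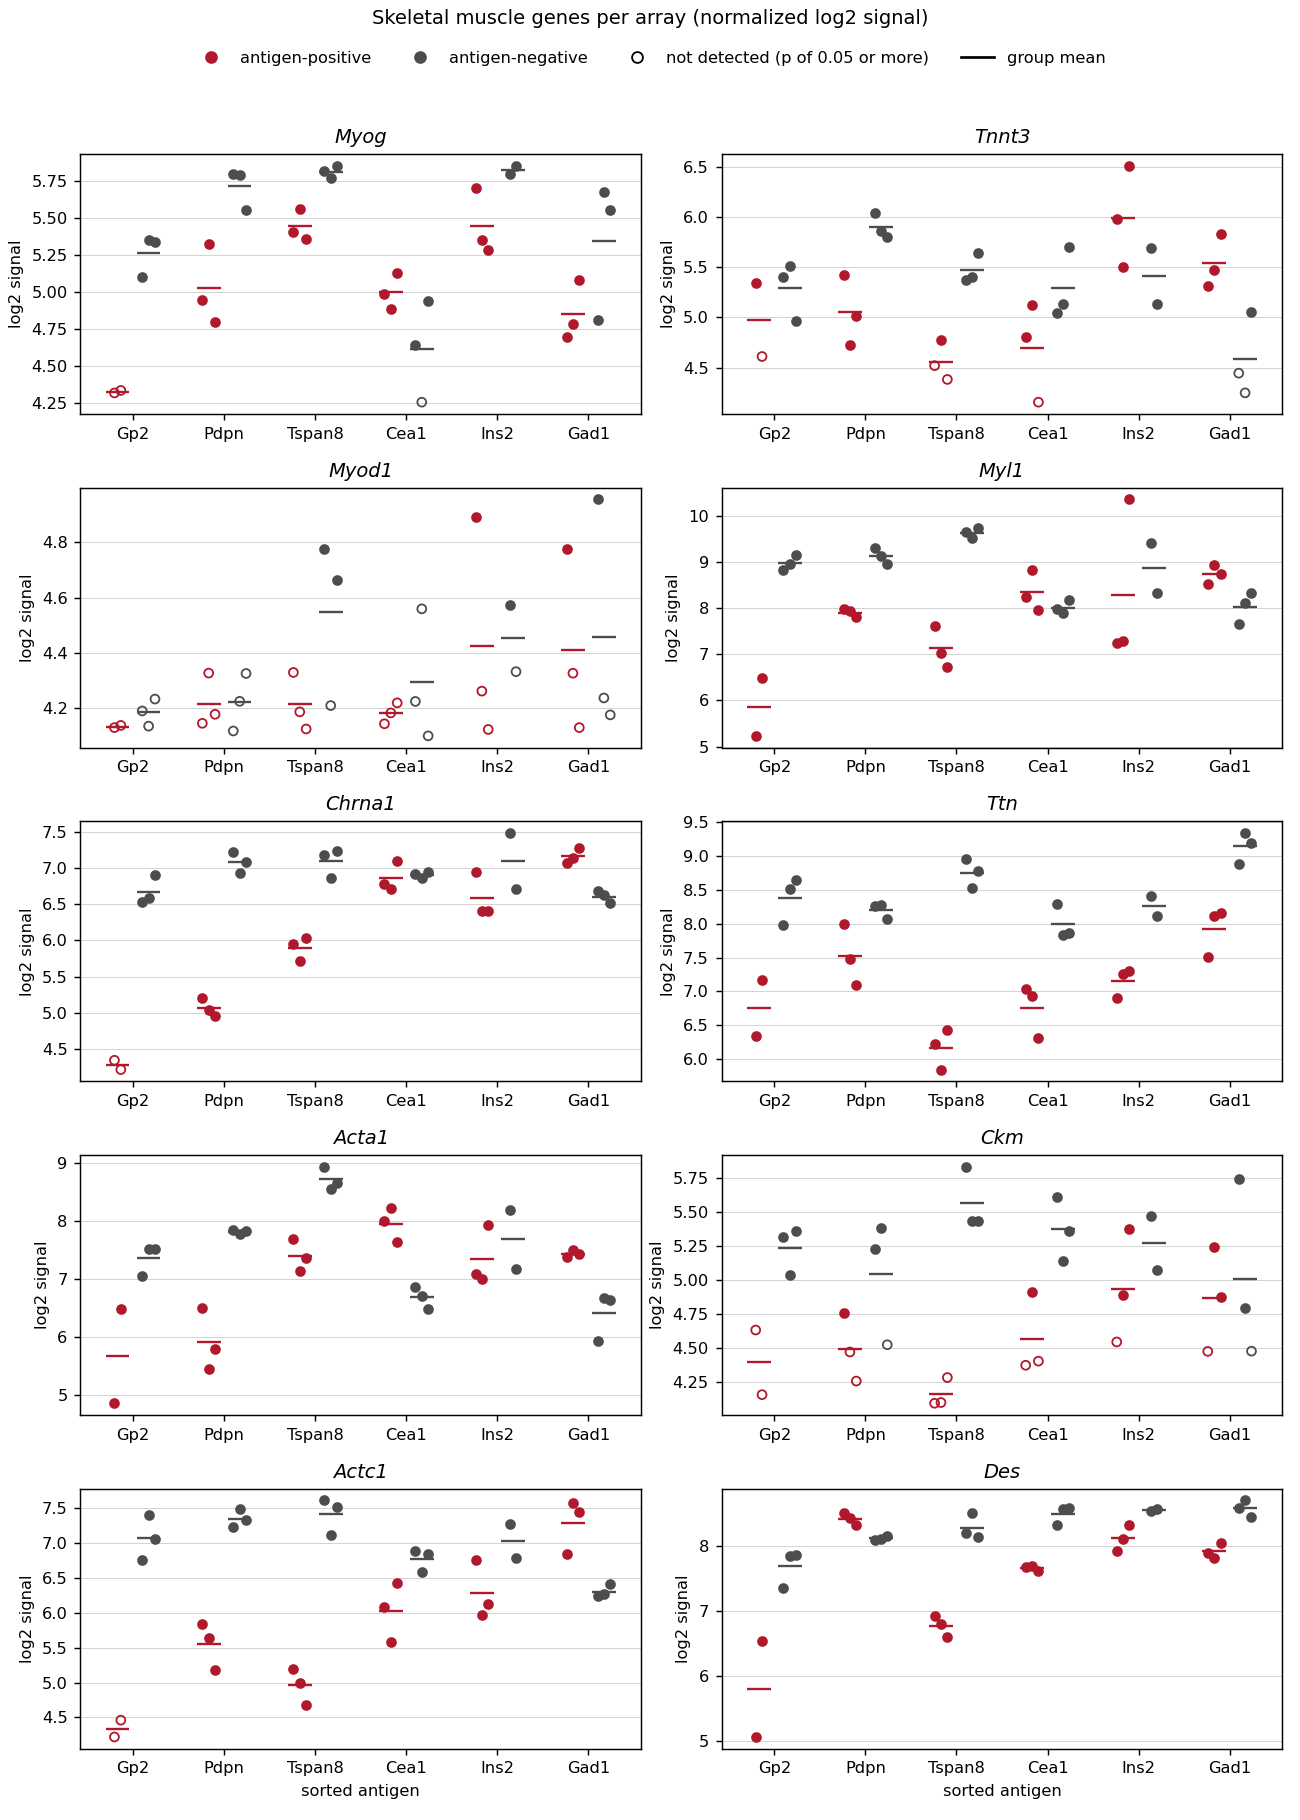
Normalized log2 signal of each muscle gene on every array, with the sorts along the horizontal axis, positive cells in red left of negative cells in grey. Open points were not detected and horizontal lines are group means; each panel has its own vertical scale. Chrna1 and Actc1 of Gp2-positive cells and Ckm of Tspan8-positive cells were detected on no array, and one Ins2-positive array lies far above the other 2 for Myl1.

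Chrna1 encodes the alpha subunit that carries the acetylcholine binding site of the muscle receptor. Its promoter window is shown because it holds the motif CAGCTG, an E-box of the kind that myogenic factors bind, in 2 copies. The window runs from 250 bases before to 50 after the transcript start (RefSeq, GRCm38.p6, chr2:73580289-73580588, minus strand), and the capitals mark the copies, which begin 92 and 44 bases before the start.
Chrna1: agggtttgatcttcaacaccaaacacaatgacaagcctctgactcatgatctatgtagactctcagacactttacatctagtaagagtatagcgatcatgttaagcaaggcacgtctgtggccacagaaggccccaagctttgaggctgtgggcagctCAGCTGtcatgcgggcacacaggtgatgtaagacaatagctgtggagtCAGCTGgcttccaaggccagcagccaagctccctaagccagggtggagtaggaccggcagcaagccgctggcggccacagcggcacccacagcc
The same 6 letters, which read alike on both strands, were in 16.3% of the 32851 promoter windows of that length. A match is a description of the letters and shows no binding.

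Chrna1 had the smallest p of the 10 members in limma's F test between the sorts (adjusted p = 3.99e-11). In the Gp2 sort its signal was 4.34 and 4.21 in positive cells, not detected on either array, against 6.54, 6.58 and 6.91 in negative cells. With the floor used for Myog, Chrna1 was 4.72-fold lower in Gp2-positive cells. The limma difference, without the floor, was -2.40 (95% interval -2.83 to -1.97, adjusted p = 1.93e-11). Pdpn-positive arrays read 5.21, 5.04 and 4.95, against 7.23, 6.94 and 7.08 on Pdpn-negative arrays. The groups were about 2 log2 units apart without overlap, a difference of -2.02 (SE 0.19, adjusted p = 1.29e-10) or 4.05-fold lower in Pdpn-positive cells. In the Tspan8 sort the signals were 5.95, 5.71 and 6.04 in positive cells, against 7.18, 6.87 and 7.24 in negative cells. That difference of -1.20 (SE 0.19, adjusted p = 2.11e-06) was smaller than the one in the Pdpn sort by 0.82 (SE 0.27, adjusted p = 0.0165 for the difference between sorts).

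In the Gad1 sort the order was the opposite. Chrna1 read 7.08, 7.15 and 7.27 in Gad1-positive cells, against 6.68, 6.62 and 6.51 in Gad1-negative cells. All 3 positive arrays were above all 3 negative ones, with a difference of 0.56 (SE 0.19, adjusted p = 0.0172). Leaving out Gad1-positive replicate 3 (0.50, adjusted p = 0.0642) or Gad1-negative replicate 3 (0.51, adjusted p = 0.0589) ended the call. In the Cea1 sort the arrays overlapped, with 6.78, 6.72 and 7.09 in positive cells, against 6.92, 6.86 and 6.94 in negative cells. That difference was -0.04 (95% interval -0.43 to 0.34, adjusted p = 0.911). The Ins2 sort gave 6.94, 6.41 and 6.41 in positive cells, against 7.49 and 6.71 in negative cells.

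The Ins2 difference of -0.51 (SE 0.21, adjusted p = 0.0575) was just short of the threshold. It passed without Ins2-negative replicate 3 (-0.90, adjusted p = 0.00569) and without Ins2-positive replicate 1 (-0.69, adjusted p = 0.0146), and with median scaling it was -1.13 (adjusted p = 0.000431). The difference in the Gad1 sort exceeded the one in the Ins2 sort by 1.07 (SE 0.28, adjusted p = 0.00642). A second Chrna1 probe gave the same calls in the same 4 sorts, with differences of -2.29 (Gp2), -1.51 (Pdpn), -0.97 (Tspan8) and 0.60 (Gad1). It was likewise undetected on both Gp2-positive arrays, and the remaining probe was detected on 0 arrays.

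Across the 12 groups, Chrna1 had its highest mean in Gad1-positive cells (7.17 ± 0.10, SD, n = 3). A run of 7 more groups followed down to Gad1-negative cells (6.61 ± 0.08, n = 3), each overlapping the next in the order, and then Ins2-positive cells (6.59 ± 0.31, n = 3). The last 3 groups were each separated from the one above: Tspan8-positive (5.90 ± 0.17, n = 3), Pdpn-positive (5.07 ± 0.13, n = 3) and Gp2-positive cells (4.28 ± 0.09, n = 2). The genes whose 12 group means followed Chrna1 most closely were Bglap2 (Pearson 0.98), Lce3b (0.97) and Klk1b24 (0.97), which are given as a description since the points share arrays and normalization.

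The other genes of the muscle receptor and its synapse came from a list of 11, all measured. In the positive cells of the Gp2 and Tspan8 sorts 5 of them were lower, in those of the Pdpn and Cea1 sorts 4, of the Ins2 sort 3 and of the Gad1 sort 2. One was higher in each of the Gp2, Pdpn, Gad1 and Ins2 sorts, and it was the same gene, Agrn. The list's median difference was between -0.28 (Tspan8 sort) and -0.08 (Ins2 sort). Of all genes, 23.9% were called lower in the Tspan8, 21.0% in the Gp2, 19.2% in the Gad1, 19.1% in the Pdpn, 17.7% in the Ins2 and 15.6% in the Cea1 sort. Called higher were 19.2% in the Gad1, 19.1% in the Tspan8, 18.2% in the Pdpn, 18.0% in the Gp2, 16.8% in the Ins2 and 13.4% in the Cea1 sort. The counts of this and every later gene list are to be read beside these shares.

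Chrng, the gamma subunit of the fetal receptor, had means of 5.03 ± 0.55 in Tspan8-positive and 7.84 ± 0.28 in Tspan8-negative cells (SD, n = 3 each). Its differences were -2.82 (SE 0.25, adjusted p = 1.19e-11) in the Tspan8 sort, -2.18 (SE 0.28) in the Gp2 sort and -2.09 (SE 0.25) in the Pdpn sort. In the Gad1 sort, where Chrna1 was higher in positive cells, Chrng had a difference of -0.55 (SE 0.25, adjusted p = 0.0755). Its Cea1 call (-0.76) was lost without Cea1-negative replicate 1 (-0.69, adjusted p = 0.0706) or Cea1-positive replicate 2 (-0.58, adjusted p = 0.120), and its Ins2 call (-0.98) without Ins2-negative replicate 1 (-0.75, adjusted p = 0.115).

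Chrne, the epsilon subunit that replaces gamma in the adult receptor, was lower in the same 5 sorts. Its differences were -1.65 (SE 0.24, adjusted p = 4.79e-07) in the Tspan8, -1.48 in the Pdpn, -1.45 in the Gp2, -1.04 in the Cea1 and -0.97 in the Ins2 sort, the last lost without Ins2-negative replicate 3 (-0.55, adjusted p = 0.225). The Gad1 sort gave -0.49 (adjusted p = 0.103).  Chrnb1, the beta subunit, was lower in the Gp2 (-0.84), Tspan8 (-0.77) and Gad1 (-0.56) sorts, and in the Cea1 sort (-0.49) with a call lost without Cea1-negative replicate 1 (-0.39, adjusted p = 0.111) or Cea1-positive replicate 3 (-0.38, adjusted p = 0.118). In the Ins2 sort its difference of -0.42 became called without Ins2-negative replicate 3 (-0.63, adjusted p = 0.0323).

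Agrn encodes agrin, the nerve- and basement-membrane proteoglycan that clusters the receptors. It was higher in Pdpn-positive (1.84, SE 0.18, adjusted p = 4.38e-10), Gp2-positive (1.14, adjusted p = 2.08e-05) and Gad1-positive cells (1.12, adjusted p = 5.11e-06). Its Ins2 call (0.68) was lost without Ins2-negative replicate 1 (0.31, adjusted p = 0.381) or Ins2-positive replicate 3 (0.52, adjusted p = 0.0642). Lrp4, the agrin receptor, was lower in the Gp2 (-1.20) and Gad1 (-0.83) sorts, and its Ins2 call (-0.71) was lost without Ins2-negative replicate 1 (-0.62, adjusted p = 0.0630). Colq, which anchors acetylcholinesterase at the synapse, was lower in the Pdpn sort (-1.09), and its calls in the Tspan8 (-0.67) and Gp2 (-0.66) sorts each depended on single arrays, among them Tspan8-positive replicate 3 (-0.48 without it, adjusted p = 0.143) and Gp2-positive replicate 2 (-0.48 without it, adjusted p = 0.286). Ache, acetylcholinesterase itself, was lower in the Tspan8 sort (-0.68), while its Cea1 call (-0.52) was lost without Cea1-negative replicate 1 (-0.33, adjusted p = 0.266) and in 4 further removals of an array. Chrnd, the delta subunit, was at most 0.30 from 0 in any sort, and its Pdpn call (-0.30) was lost without Pdpn-negative replicate 3 (-0.24, adjusted p = 0.115). Musk, Rapsn and Dok7, a kinase and its partners in receptor clustering, were called in none of the 6 sorts (differences -0.34 to 0.51).

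**Figure D3:**
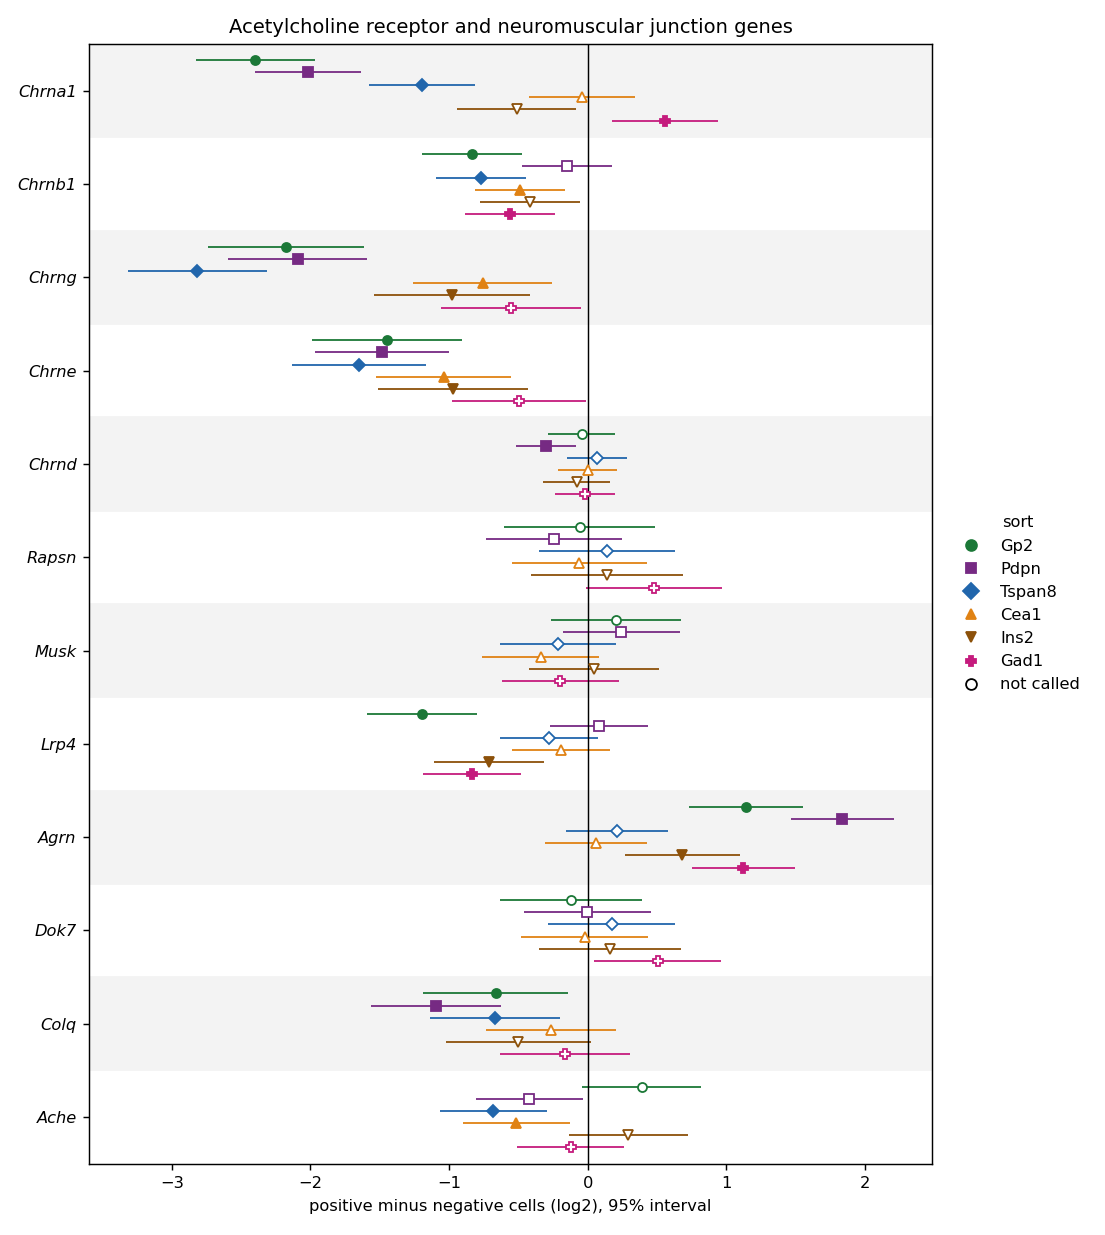
Difference of Chrna1 and of 11 other genes of the muscle acetylcholine receptor and its synapse in each sort, positive minus negative cells (log2) on the horizontal axis, genes down the page, sorts as coloured symbols with 95% intervals. Filled symbols were called and open ones were not. Chrng and Chrne lie left of 0 in all 6 sorts, and Agrn is right of 0 with filled symbols in 4.

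Acetylcholine receptor subunits of neurons and sensory cells were a separate list. Of 11, 4 were higher and 0 lower in Gad1-positive cells, while 7 were lower in Pdpn-positive, 4 in each of Gp2-positive and Tspan8-positive and 3 in Cea1-positive cells. In Ins2-positive cells 2 were higher and 0 lower, and 1 was higher in Gp2-positive cells. Chrna5 averaged 8.19 ± 0.13 in Gad1-positive and 6.07 ± 0.10 in Gad1-negative cells (SD, n = 3 each), a difference of 2.12 (SE 0.18, adjusted p = 1.32e-11). In the Gp2 sort the same gene had a difference of -2.49 (adjusted p = 3.21e-12) and in the Pdpn sort of -1.88 (adjusted p = 2.29e-10). Chrna10, a subunit of the cochlear receptor, had differences of 1.70 in the Gad1, -2.60 in the Gp2 and -1.78 in the Pdpn sort.

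The actins come next. Acta1 encodes the actin of adult skeletal muscle and Actc1 that of heart, which is also made in developing skeletal muscle. Their promoter windows are shown because each holds a CArG box, the element to which serum response factor binds, found in 1.63% of the 32851 windows. The Acta1 window (RefSeq, GRCm38.p6, chr8:123894726-123895025, minus strand) also holds 1 CAGCTG that begins 221 bases before the start, and its CArG box begins 73 bases before it. In the Actc1 window (chr2:114052826-114053125, minus strand) the CArG box begins 47 bases before the start. Capitals mark these motifs.
Acta1: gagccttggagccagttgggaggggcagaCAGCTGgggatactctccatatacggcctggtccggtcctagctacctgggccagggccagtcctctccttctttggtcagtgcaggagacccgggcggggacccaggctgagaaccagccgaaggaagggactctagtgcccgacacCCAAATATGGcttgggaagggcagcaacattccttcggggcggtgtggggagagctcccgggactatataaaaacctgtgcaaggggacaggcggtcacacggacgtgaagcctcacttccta
Actc1: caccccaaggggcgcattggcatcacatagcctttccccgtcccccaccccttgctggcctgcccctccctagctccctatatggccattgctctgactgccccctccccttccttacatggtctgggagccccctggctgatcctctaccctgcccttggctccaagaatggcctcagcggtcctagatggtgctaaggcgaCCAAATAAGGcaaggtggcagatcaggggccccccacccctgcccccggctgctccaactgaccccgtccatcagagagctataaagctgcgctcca
Of the 8 members with a promoter window, 5 held CAGCTG (Chrna1, Acta1, Ckm, Myl1 and Des), 2 a CArG box and 1 a MEF2 motif (Ttn). Myog held no exact match to any of the 3. Only the E-box form CAGCTG was searched, so other forms, such as cagttg in the Myog window, were not counted. The MEF2 pattern searched was YTAWWWWTAR, where Y is C or T, W is A or T and R is A or G. Near matches were not counted, such as ctatatttat in the Myog window, which departs from that pattern in its last letter.

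Acta1 read 6.49, 5.45 and 5.80 in Pdpn-positive cells, against 7.84, 7.77 and 7.82 in Pdpn-negative cells. The groups did not overlap, and the difference was -1.90 (SE 0.30, adjusted p = 3.88e-06). Tspan8-positive arrays read 7.69, 7.13 and 7.36, against 8.94, 8.55 and 8.66 on Tspan8-negative arrays, which had the highest mean of the 12 groups. This difference was -1.32 (SE 0.30, adjusted p = 0.000413). In the Gp2 sort the signals were 4.86 and 6.48 in positive cells, against 7.06, 7.52 and 7.52 in negative cells. Both positive arrays were lower, but they lay 1.62 apart, which is close to the difference itself (-1.70, SE 0.34, adjusted p = 9.66e-05), and without Gp2-positive replicate 1 it was -0.89 and not called (adjusted p = 0.0567).

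The Gad1 and Cea1 sorts went the other way. Acta1 read 7.37, 7.51 and 7.44 in Gad1-positive cells, against 5.94, 6.68 and 6.64 in Gad1-negative cells. The difference was 1.02 (SE 0.30, adjusted p = 0.00640), with no overlap, and it was not called without Gad1-negative replicate 1 (0.78, adjusted p = 0.0613). Cea1-positive cells read 8.01, 8.22 and 7.64, against 6.87, 6.70 and 6.48 in Cea1-negative cells. Acta1 was thus 2.41-fold higher in Cea1-positive cells (1.27, SE 0.30, adjusted p = 0.00129), the single member higher in that sort. In the Ins2 sort the groups overlapped, with 7.09, 7.01 and 7.94 in positive cells, against 8.20 and 7.17 in negative cells (difference -0.34, adjusted p = 0.498; with median scaling -0.99, adjusted p = 0.0104). The difference in the Cea1 sort exceeded that in the Ins2 sort by 1.61 (SE 0.45, adjusted p = 0.0182), and Acta1 was the 1 member of 10 that differed between those sorts, where 9.81% of all genes did.

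Actc1 was called in all 6 sorts. It was not detected on either Gp2-positive array (4.22 and 4.46), against 6.75, 7.40 and 7.05 in Gp2-negative cells. With the floor used for Myog, Actc1 was 6.20-fold lower in Gp2-positive cells. The limma difference, without the floor, was -2.73 (95% interval -3.27 to -2.19, adjusted p = 2.21e-10). Tspan8-positive cells read 5.20, 5.00 and 4.68, against 7.61, 7.11 and 7.51 in Tspan8-negative cells. The gap of more than 2 log2 units gave 5.46-fold lower signal in Tspan8-positive cells (-2.45, SE 0.24, adjusted p = 1.26e-10). Pdpn-positive arrays read 5.84, 5.63 and 5.18, against 7.23, 7.48 and 7.33 on Pdpn-negative arrays (-1.79, SE 0.24, adjusted p = 1.77e-07). None of these groups overlapped.

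Gad1-positive cells were again on the other side, with Actc1 at 6.84, 7.57 and 7.43, against 6.23, 6.26 and 6.40 in Gad1-negative cells. Every positive array was higher, by 0.98 on average (SE 0.24, adjusted p = 0.00109). Smaller falls were seen in the Cea1 sort, with 6.08, 5.58 and 6.42 in positive cells, against 6.89, 6.58 and 6.84 in negative cells. That difference of -0.74 (SE 0.24, adjusted p = 0.0168) was lost without Cea1-negative replicate 1 (-0.68, adjusted p = 0.0626), Cea1-negative replicate 3 (-0.71, adjusted p = 0.0527) or Cea1-positive replicate 2 (-0.52, adjusted p = 0.141). In the Ins2 sort Actc1 read 6.75, 5.97 and 6.13 in positive cells, against 7.26 and 6.78 in negative cells. Its difference of -0.74 (SE 0.27, adjusted p = 0.0294) was lost without Ins2-negative replicate 1 (-0.49, adjusted p = 0.317), Ins2-positive replicate 2 (-0.58, adjusted p = 0.126) or Ins2-positive replicate 3 (-0.66, adjusted p = 0.0876), and with the replicate block (-0.58, adjusted p = 0.0727).

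Over the 12 group means Actc1 ran closest to Serpina9 (Pearson 0.98), Itih3 (0.98) and Pkd2l1 (0.97). Its correlation with Aire was 0.943, and with other genes of the mTEC list it was 0.869 (Cd80) and 0.862 (Fezf2). The values for Acta1 were lower, 0.90 with its nearest gene Il17c, 0.468 with Aire, 0.483 with Cd80 and 0.605 with Fezf2. Actc1 and Acta1 correlated at 0.655 with each other. A dimmer second Actc1 probe, detected on 14 arrays, was called lower in the Cea1 and Tspan8 sorts and nowhere else, where 12.6% and 18.4% of all kept probes were called lower.

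Myl1 encodes an alkali light chain of fast skeletal myosin. In Tspan8-positive cells it read 7.62, 7.04 and 6.73, against 9.65, 9.51 and 9.73 in Tspan8-negative cells. The groups were far apart, with 5.67-fold lower signal in Tspan8-positive cells (-2.50, SE 0.43, adjusted p = 1.07e-05). Gp2-positive arrays read 5.23 and 6.49, against 8.83, 8.95 and 9.15 on Gp2-negative arrays (-3.11, SE 0.49, adjusted p = 2.60e-06). Both positive arrays were lower by more than 2 log2 units although they differed between themselves.

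Pdpn-positive cells had Myl1 signals of 7.98, 7.93 and 7.80, against 9.31, 9.14 and 8.96 in Pdpn-negative cells. The groups did not overlap (-1.23, SE 0.43, adjusted p = 0.0238), and the call was lost without Pdpn-negative replicate 1 (-1.14, adjusted p = 0.0762) or 2 (-1.23, adjusted p = 0.0544) and without Pdpn-positive replicate 2 (-1.24, adjusted p = 0.0517) or 3 (-1.17, adjusted p = 0.0667). The Gad1 sort had 8.52, 8.93 and 8.74 in positive cells, against 7.66, 8.11 and 8.33 in negative cells. Those groups were separated too, but 0.70 (SE 0.43, adjusted p = 0.219) was not called. With each sort fitted alone this difference was called (SE 0.18, adjusted p = 0.0120). In the Ins2 sort the positive arrays read 7.25, 7.28 and 10.36, against 9.42 and 8.33 on the negative arrays. Of these 5 arrays, Ins2-positive replicate 3 was the highest, and without it the difference of -0.58 (adjusted p = 0.407) became -1.61 (adjusted p = 0.000114). With median scaling and all arrays it was -1.24 (adjusted p = 0.0173). The Cea1 groups overlapped, with 8.25, 8.84 and 7.96 in positive cells, against 7.98, 7.90 and 8.17 in negative cells (0.34, adjusted p = 0.637). A dim second Myl1 probe, detected on 5 arrays, was called in the Gad1 sort alone (-0.48, adjusted p = 0.0199), where it was detected on 0 of 3 positive arrays.

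Tnnt3 encodes the troponin T of fast skeletal muscle, which ties the troponin complex to the thin filament. It was dim, detected on 28 arrays. In Gad1-positive cells it read 5.31, 5.48 and 5.83, against 4.45, 4.25 and 5.05 in Gad1-negative cells, of which 1 array detected it. The groups did not overlap (0.96, SE 0.27, adjusted p = 0.00455). Pdpn-positive cells read 5.42, 4.73 and 5.01, against 6.04, 5.86 and 5.80 in Pdpn-negative cells. This difference (-0.85, SE 0.27, adjusted p = 0.0118) was lost without Pdpn-positive replicate 2 (-0.68, adjusted p = 0.0821). Tspan8-positive cells read 4.52, 4.78 and 4.38, with 1 array detected, against 5.37, 5.41 and 5.64 in Tspan8-negative cells (-0.91, SE 0.27, adjusted p = 0.00568).

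In the other 3 sorts Tnnt3 was not called. The Ins2 sort held its highest group mean, 5.99 ± 0.51 in Ins2-positive cells (n = 3), against 5.41 ± 0.40 in Ins2-negative cells (SD, n = 2). That difference of 0.58 (adjusted p = 0.142) was called without Ins2-positive replicate 2 (0.83, adjusted p = 0.0424) and with the replicate block (adjusted p = 0.0495). In the Cea1 sort -0.60 (adjusted p = 0.0970) was called without Cea1-positive replicate 2 (-0.81, adjusted p = 0.0389). The Gp2 sort gave -0.32 (adjusted p = 0.452).

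Ttn encodes titin, the giant spring protein of the sarcomere. It was the only member called lower in all 6 sorts, the Gad1 sort included. Its promoter window (RefSeq, GRCm38.p6, chr2:76982498-76982797, minus strand) is shown for that reason and because it was the 1 member window with an exact match to the MEF2 pattern searched. The match, in capitals, begins 166 bases before the start, and such matches were found in 3.19% of the windows.
Ttn: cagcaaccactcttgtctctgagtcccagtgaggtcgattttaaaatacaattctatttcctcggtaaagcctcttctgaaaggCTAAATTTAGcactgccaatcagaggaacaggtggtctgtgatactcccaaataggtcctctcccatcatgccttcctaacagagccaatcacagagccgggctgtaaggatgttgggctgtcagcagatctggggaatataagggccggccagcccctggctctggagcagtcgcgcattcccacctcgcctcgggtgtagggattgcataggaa

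On its brightest probe Ttn read 6.22, 5.85 and 6.42 in Tspan8-positive cells, against 8.95, 8.53 and 8.78 in Tspan8-negative cells. It was 6.02-fold lower in Tspan8-positive cells (-2.59, SE 0.23, adjusted p = 2.17e-11), a larger fall than in any of the 5 other sorts by the pairwise tests (adjusted p = 1.73e-05 against the Pdpn sort to 0.0308 against the Gp2 sort). Gp2-positive cells read 6.35 and 7.17, against 7.98, 8.51 and 8.65 in Gp2-negative cells (-1.62, SE 0.26, adjusted p = 4.48e-06). Cea1-positive cells read 7.04, 6.93 and 6.31, against 8.29, 7.83 and 7.87 in Cea1-negative cells (-1.24, SE 0.23, adjusted p = 9.06e-05). In none of these sorts did the groups overlap.

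Ttn fell in both reporter sorts too. It read 7.51, 8.11 and 8.16 in Gad1-positive cells, against 8.89, 9.34 and 9.20 in Gad1-negative cells, the highest group mean of all 12. That difference of -1.21 (SE 0.23, adjusted p = 6.93e-05) went against the rise of Acta1, Actc1, Chrna1 and Tnnt3 on the same arrays. Ins2-positive cells read 6.90, 7.25 and 7.30, against 8.40 and 8.12 in Ins2-negative cells (-1.11, SE 0.26, adjusted p = 0.000921). Pdpn-positive cells read 8.00, 7.48 and 7.09, against 8.25, 8.27 and 8.07 in Pdpn-negative cells. The Pdpn difference was the smallest (-0.68, SE 0.23, adjusted p = 0.0201) and was lost without Pdpn-negative replicate 1 (-0.65, adjusted p = 0.0590) or 2 (-0.64, adjusted p = 0.0619), without Pdpn-positive replicate 2 (-0.66, adjusted p = 0.0565) or 3 (-0.46, adjusted p = 0.174), and with median scaling (-0.61, adjusted p = 0.0695).

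Titin had 12 probes, of which 10 passed the filter and 3 were detected on all 34 arrays. The second brightest was called lower in all 6 sorts like the first, with differences of -2.52 (Tspan8) to -0.66 (Pdpn), where 12.6% (Cea1) to 18.4% (Tspan8) of all kept probes were called lower. The third was lower in the Tspan8 (-1.69), Gad1 (-1.25) and Cea1 (-1.04) sorts. In the Gp2 sort it differed by -0.24 (adjusted p = 0.592), and in the Ins2 sort it was higher in positive cells, with 6.56, 6.72 and 6.44, against 5.55 and 5.96 in negative cells (0.82, adjusted p = 0.0284). Its unnormalized intensities in that sort were 134, 150.0 and 117 in positive cells, against 147 and 141 in negative cells, so the groups overlapped before normalization.

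The 9 dimmer titin probes were detected on 1 to 25 arrays, and the 7 of them that passed the filter gave 5 calls of mixed direction. Of all kept probes, 10.7% (Cea1) to 16.7% (Gp2) were called higher, with 15.3% in the Pdpn, 14.7% in the Gad1, 13.3% in the Ins2 and 16.5% in the Tspan8 sort, and 15.9% in the Pdpn, 16.5% in the Gp2, 15.9% in the Gad1 and 14.6% in the Ins2 sort were called lower. Averaging the 10 kept probes left Ttn not called in the Pdpn (-0.25, adjusted p = 0.175), Gp2 (-0.22, adjusted p = 0.289) and Ins2 (-0.04, adjusted p = 0.899) sorts. Over the 12 group means the brightest probe ran closest to Nfkbie (Pearson 0.98), an inhibitor of NF-kappaB, then Arrb2 (0.97) and Pacsin2 (0.96).

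**Figure D4:**
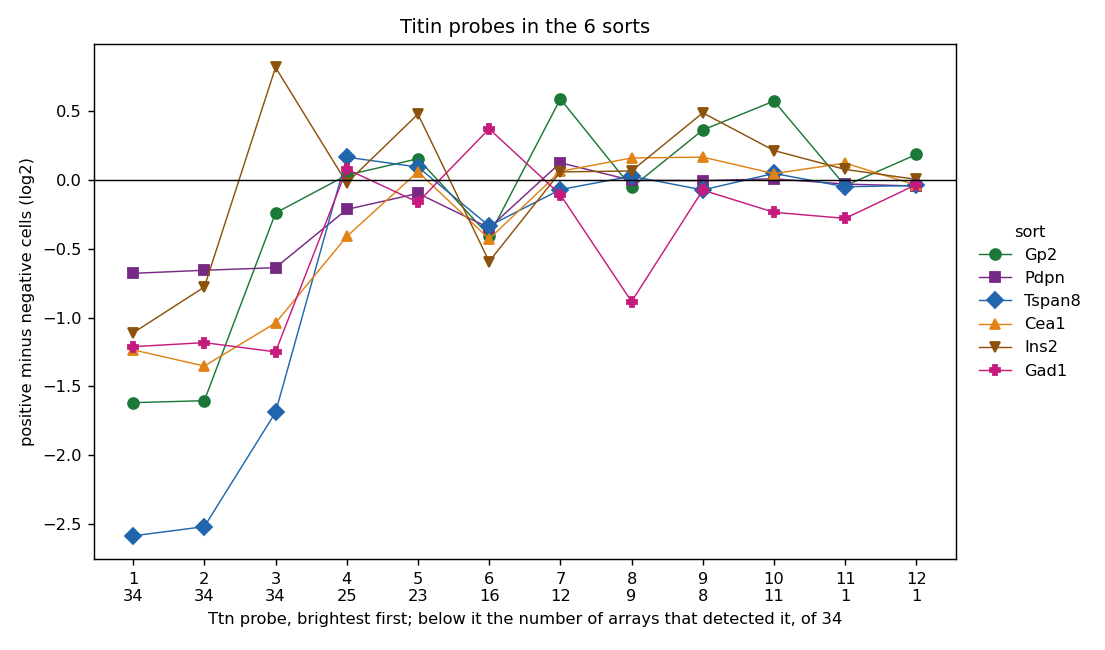
Difference of each of the 12 titin probes in each sort, positive minus negative cells (log2) on the vertical axis, with probes along the horizontal axis from brightest to dimmest and the number of arrays that detected each below it. Lines join the values of 1 sort for the eye only. The 2 brightest probes lie below 0 in all 6 sorts, the third splits in the Ins2 and Gp2 sorts, and the dim probes scatter around 0.

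Ckm encodes the muscle creatine kinase, which buffers energy in muscle fibres. It was dim, detected on 21 arrays. In Tspan8-positive cells it was detected on no array (4.09, 4.10 and 4.28), against 5.83, 5.43 and 5.43 in Tspan8-negative cells. With the floor used for Myog, Ckm was 2.28-fold lower in Tspan8-positive cells. The limma difference, without the floor, was -1.41 (95% interval -1.94 to -0.87, adjusted p = 3.52e-05). In Gp2-positive cells it was also undetected (4.63 and 4.16), against 5.31, 5.03 and 5.36 in Gp2-negative cells. With the same floor it was 1.59-fold lower there. The limma difference, without the floor, was -0.84 (95% interval -1.44 to -0.24, adjusted p = 0.0217). The call was lost without Gp2-negative replicate 1 (adjusted p = 0.0525) or 3 (adjusted p = 0.0620), and with the replicate block (adjusted p = 0.0795). Without Gp2-positive replicate 2, which leaves 1 positive array, the difference was -0.61. In the Cea1 sort Ckm read 4.37, 4.91 and 4.40 in positive cells, against 5.61, 5.14 and 5.36 in negative cells. Only 1 of the 3 positive arrays detected it, and the difference (-0.81, SE 0.26, adjusted p = 0.0188) was lost without Cea1-negative replicate 1 (-0.69, adjusted p = 0.0898) or Cea1-positive replicate 1 (-0.71, adjusted p = 0.0760) or 3 (-0.73, adjusted p = 0.0761).

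Ckm was not called in the other sorts. The Pdpn difference of -0.55 (adjusted p = 0.105) became called without Pdpn-negative replicate 3 (-0.81, adjusted p = 0.0246), the 1 array of that group that did not detect it. The Ins2 and Gad1 differences were -0.34 (adjusted p = 0.423) and -0.14 (adjusted p = 0.737).

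Des encodes desmin, the intermediate filament of muscle cells, which smooth muscle and pericytes share. In Gp2-positive cells it read 5.06 and 6.54, against 7.36, 7.85 and 7.85 in Gp2-negative cells. The difference was -1.89 (SE 0.23, adjusted p = 2.11e-08) and -1.14 (adjusted p = 2.28e-05) without Gp2-positive replicate 1. Tspan8-positive cells read 6.92, 6.80 and 6.60, against 8.20, 8.52 and 8.14 in Tspan8-negative cells (-1.52, SE 0.20, adjusted p = 1.17e-07). Cea1-positive cells read 7.68, 7.70 and 7.62, against 8.33, 8.57 and 8.58 in Cea1-negative cells (-0.83, SE 0.20, adjusted p = 0.00191). These groups did not overlap.

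In the Gad1 sort desmin was on the side of titin, not of the actins, with 7.90, 7.82 and 8.05 in positive cells, against 8.59, 8.70 and 8.45 in negative cells (-0.66, SE 0.20, adjusted p = 0.00947). In the Ins2 sort it read 7.92, 8.11 and 8.33 in positive cells, against 8.54 and 8.57 in negative cells, without overlap but not called (-0.44, SE 0.23, adjusted p = 0.139). With median scaling that difference was -1.10 and called (adjusted p = 0.000185). In the Pdpn sort Des read 8.51, 8.44 and 8.32 in positive cells, against 8.09, 8.11 and 8.16 in negative cells. The positive arrays were all higher, but 0.30 (SE 0.20, adjusted p = 0.271) was not called. The Pdpn difference exceeded the one in the Gp2 sort by 2.19 (SE 0.31, adjusted p = 1.18e-06) and the one in the Tspan8 sort by 1.82 (SE 0.29, adjusted p = 4.32e-06). Of 10 smooth muscle and pericyte genes, 6 were higher and 1 lower in Pdpn-positive cells. Their medians per array were 7.74 to 7.89 in Pdpn-positive and 7.40 to 7.58 in Pdpn-negative cells. In Cea1-positive cells 6 were lower and 2 higher, in Tspan8-positive cells 5 lower and 2 higher, and in Gp2-positive cells 4 lower and 1 higher. Ins2-positive cells had 4 lower and 3 higher, and Gad1-positive cells 1 lower and 2 higher. The part of such cells in the desmin value was not tested.

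The 6 differences were not equal for 8 of the 10 members by limma's F test over the sorts, where 61.5% of all genes passed it. Ckm (adjusted p = 0.0542) and Myod1 (adjusted p = 0.862) did not pass. Between pairs of sorts, the Gad1 and Tspan8 sorts differed for 8 members (33.3% of all genes), with Actc1 the farthest apart (3.43, adjusted p = 5.34e-10). The Pdpn and Gp2 sorts differed for 2 (21.6% of all genes), Myl1 and Des. The Gp2 and Tspan8 sorts also differed for 2 (32.4% of all genes), Chrna1 and Ttn. For the other pairs the counts were 6 for Pdpn and Gad1 (44.7% of all genes), 6 for Gp2 and Gad1 (44.5%), 6 for Gp2 and Cea1 (30.9%), 5 for Pdpn and Cea1 (29.1%), 5 for Gp2 and Ins2 (35.5%), 5 for Cea1 and Tspan8 (15.0%) and 5 for Ins2 and Tspan8 (17.1%). Fewer differed between Pdpn and Ins2 (4, 32.8%), Pdpn and Tspan8 (3, 30.5%), Gad1 and Cea1 (3, 22.2%) and Gad1 and Ins2 (3, 19.3%). Some counts that involve the Gp2 sort include Myog, Chrna1 or Actc1, whose signal in Gp2-positive cells was not above background. The count for Gad1 and Tspan8 includes Ckm, whose signal in Tspan8-positive cells was not above background. The size of such a gap is not known. No array was shared between sorts.

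Other muscle gene lists were read beside the members. Of 23 other sarcomere genes tested, 16 were lower and 1 higher in Tspan8-positive cells (median difference -0.95), 12 lower and 0 higher in Gp2-positive cells (-0.46), and 10 lower and 4 higher in Pdpn-positive cells (-0.33). In Cea1-positive cells 8 were lower and 0 higher (-0.29). In Gad1-positive cells 10 were higher and 3 lower (0.27), and in Ins2-positive cells 5 were higher and 4 lower (0.02). Myh8, the perinatal myosin heavy chain, averaged 9.12 ± 0.17 in Gad1-positive and 7.51 ± 0.10 in Gad1-negative cells (SD, n = 3 each; difference 1.61, adjusted p = 2.22e-06). In the Tspan8 sort it averaged 5.95 ± 0.76 in positive and 8.64 ± 0.34 in negative cells (-2.69, adjusted p = 3.28e-11). Myh3, the embryonic form, had differences of -2.81 in the Gp2, -2.77 in the Tspan8 and -1.54 in the Pdpn sort.

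Actn3, the alpha-actinin of fast fibres, was, like titin, lower in all 6 sorts, the Gad1 sort included. Its means were 10.62 ± 0.13 in Gad1-positive and 11.82 ± 0.06 in Gad1-negative cells (SD, n = 3 each; -1.20, SE 0.15, adjusted p = 6.06e-08), and its differences in the Gp2 and Tspan8 sorts were -2.95 and -2.87. Tnnc1, the slow and cardiac troponin C, was 1.43 higher in Gad1-positive cells (SE 0.18, adjusted p = 5.65e-08) and lower in Tspan8-positive (-2.22) and Gp2-positive cells (-2.10).

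Genes of excitation-contraction coupling and of muscle energy metabolism were read next. Of 12 coupling genes, 5 were lower in Tspan8-positive, 4 in Gp2-positive and 4 in Pdpn-positive cells, with 1, 1 and 0 higher. In Cea1-positive cells 3 were lower (15.6% of all genes) and in Ins2-positive cells 2 (17.7% of all genes), with 0 higher in both. In Gad1-positive cells 2 were higher and 1 lower (19.2% of all genes in each direction). Cacna1s, the voltage sensor of the muscle membrane, had differences of -2.78 in the Pdpn, -2.47 in the Gp2, -2.19 in the Tspan8 and 1.31 in the Gad1 sort. Atp2a1, the calcium pump of fast fibres, was lower also in Gad1-positive cells (-0.99, adjusted p = 0.00168). Of 11 metabolism genes, 7 were lower in Tspan8-positive and 6 each in Gp2-positive and Pdpn-positive cells with 0 higher, and 5 were higher with 0 lower in Gad1-positive cells. In Cea1-positive and in Ins2-positive cells 1 was higher and 1 lower. Fabp3, a fatty acid carrier of muscle and heart, had differences of -2.66 in the Tspan8, -2.47 in the Gp2, -1.39 in the Pdpn and 0.99 in the Gad1 sort.

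Of 7 myogenic regulators tested besides Myog and Myod1, 0 were lower and 2 higher in Pdpn-positive cells, 2 were higher in Cea1-positive cells, 2 higher and 1 lower in Tspan8-positive cells, and 1 was lower in Ins2-positive cells. Eya1, a transcriptional cofactor that is not confined to muscle, was higher in Cea1-positive (1.21) and Pdpn-positive cells (0.83). It was lower in Ins2-positive cells (-0.72, lost without Ins2-negative replicate 3: -0.56, adjusted p = 0.108) and higher in Tspan8-positive cells (0.58, lost without Tspan8-positive replicate 2: 0.49, adjusted p = 0.0553). Other calls behind these counts also turned on single arrays. That of Mef2c, a MEF2 factor, in the Pdpn sort (0.69) was lost without Pdpn-positive replicate 2 (0.67, adjusted p = 0.0544) or 3 (0.60, adjusted p = 0.0871) and without Pdpn-negative replicate 2 (0.59, adjusted p = 0.0906) or 3 (0.64, adjusted p = 0.0654). That of Six4, a homeobox factor, in the Tspan8 sort (0.48) was lost without Tspan8-positive replicate 3 (0.27, adjusted p = 0.311) and without Tspan8-negative replicate 1 (0.42, adjusted p = 0.118) or 3 (0.46, adjusted p = 0.0849). Of 9 heart muscle genes, 3 were higher and 1 lower in Gad1-positive cells and 5 were lower in Gp2-positive cells, among them Nppa, the atrial natriuretic peptide gene, with differences of 2.38 and -3.26 in those sorts.

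Among themselves, the members correlated over the 12 group means from 0.190 (Acta1 with Ttn) to 0.937 (Actc1 with Myl1). These are descriptions of group means that share arrays and normalization. Myl1 had the highest median correlation with the other 9 (0.743) and Tnnt3 the lowest (0.352). Genes outside the list with the highest mean correlation over the members were Slc38a8 (0.763), Nfkbid (0.751), H2-Eb1 (0.751), Fermt1 (0.750) and Itih1 (0.750).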

How the data were processed

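Positive and negative mTECs of 6 sorts were measured on Illumina bead arrays, of which 35 are in the labels. The deposited table of unnormalized intensities and detection p-values, as given by the authors, was the main source, per the file headers; how the detection p-values were computed is not given in the sources used here. The authors' normalized intensities in the series table were an alternative. In the column meant for the intensities of Ins2-negative replicate 2, all 46089 values were identical to detection p-values that belong to replicate 1 of the Ins2-positive cells, so that array was left out and 34 were fitted.

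The bead numbers of the first table were linked to platform probes by the nearest profile over the arrays. All 46089 probes were linked, and on the array that was left out of the link the Spearman correlation of the series value with the reversed detection p was 0.989. Symbols came from the platform annotation, updated by GRCm38.p6 names: 35667 probes had 1 symbol and 10422 had none.

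Values were corrected and quantile-normalized with limma's neqc (limma 3.58.1, R 4.3.3, offset 16, with the level of negative controls taken from the detection p-values) and taken as log2. The filter on dim signals (detection p under 0.05 on 2 or more arrays in any group) left 34083 of 46089 probes, and each gene was read from its kept probe with the highest mean. A model with 12 group means (lmFit, eBayes with trend, 22 residual degrees of freedom) gave each sort's difference, and p-values were adjusted by Benjamini-Hochberg over 18090 genes within each sort or contrast. The number of arrays limits the precision. Tested on data simulated for the Pdpn sort over 18090 genes, all of 50 genes changed by -2 were recovered (100%), and 76% of those changed by -1 and 86% of those changed by 1, with 4.74% false calls.

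The replicate numbers of the labels were checked as pairs: in the Pdpn sort same-numbered samples deviated together (correlations 0.199, 0.156 and 0.205), in the other sorts they were not all over 0.1 or there were only 2 pairs. The members and gene lists were chosen with earlier results of these data known. The genes that could be named were set by a rule. It covered all members, all genes of the synapse list, and up to 4 genes with the smallest adjusted p of each other list. It also covered the genes closest to each member over the group means. Of the genes from the other lists and of the closest genes, only some are named in the text. Promoter windows came from RefSeq (GRCm38.p6), with 8 of 10 members matched. Python 3.11.15, NumPy 2.4.6, pandas 2.3.3, SciPy 1.17.1, scikit-learn 1.9.0 and Matplotlib 3.10.9 were used. Background correction, scaling, source of values, filter, choice of probe, array weights, a replicate block and the removal of each array were tried as alternatives.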

Additional observations from a re-analysis of the deposited data

Results flagged for a closer look

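The positive-minus-negative differences of 8 muscle genes were not equal over the 6 sorts by limma's F test, the test of the difference between sorts itself. That test was passed by 61.5% of all genes. The adjusted p was 3.99e-11 for Chrna1, 1.22e-10 for Actc1, 1.84e-08 for Acta1 and 1.44e-06 for Des. It was 7.45e-06 for Myl1, 0.000139 for Tnnt3, 0.000187 for Ttn and 0.00558 for Myog. Chrna1, Acta1, Actc1 and Tnnt3 were higher in Gad1-positive cells and lower in Pdpn-positive and Tspan8-positive cells. Ttn was lower in positive cells in every sort, by amounts that differed.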

How the results depend on the processing

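Of 36 called pairs of a member and a sort, 22 were called under every one of 16 to 18 alternatives. Of 714 member results under other alternatives 677 stayed on their side of the threshold, 15 lost the call, 22 gained one and 0 reversed as calls; of 340 without 1 array, 305 stayed, 26 lost and 9 gained. In each of these sets 14 differences that were called in neither fit changed sign. Members called lower in the Ins2 sort numbered 4 without background correction, 7 with median scaling, 5 with the authors' values of all 35 arrays, and 1 with the mean of all kept probes, with each sort fitted alone and with the replicate block. With the mean of all kept probes 4 were lower in the Pdpn sort. Fitting each sort alone called 1 member higher in the Pdpn sort (Des 0.30, adjusted p = 0.0314) and gained Myl1 as higher in the Gad1 sort (0.70, adjusted p = 0.0120). The replicate block called 1 higher in the Ins2 sort (Tnnt3 0.83). Apart from Ckm in the Gp2 sort, Actc1 and Tnnt3 in the Ins2 sort and Myog in the Gad1 sort, that block changed no member's call. Median scaling moved the all-gene median to -0.23 in the Gp2 and -0.25 in the Ins2 sort and the share of calls that were higher to 22.1% (46.1% with quantile normalization), 16.9% (48.6%) and, in the Cea1 sort, 36.7% (46.1%). In the Ins2 sort it took the called differences of Chrna5 (0.59 to -0.074), Tnnc1 (0.52 to -0.15), Nppa (0.65 to -0.014) and Mylk (0.52 to -0.14) below 0. None of these was then called with limma (adjusted p = 0.643 to 0.967). The mean of probes likewise took Cxcl12 in the Cea1 sort from 0.57 to -0.26, not called (adjusted p = 0.456). The causes were not tested. Without 1 array, members called lower ranged from 4 to 8 (Pdpn), 7 to 8 (Gp2), 2 to 3 (Gad1), 2 to 4 (Cea1), 1 to 3 (Ins2) and 8 to 9 (Tspan8), and higher from 0 to 0 (Pdpn, Gp2, Tspan8), 3 to 4 (Gad1), 1 to 1 (Cea1) and 0 to 1 (Ins2). A slide block was not run, as the headers give no slide. Folds of dim probes are understated by the offset.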

Other observations

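The authors' normalized intensities of Ins2-negative replicate 2, which was left out of the fit, were read on their own. By its detection p-values 9 of the 10 members were detected, Myod1 being the exception. Actc1 had 167.8, 132.3 and 135.3 in Ins2-positive cells, against 210.9, 256.4 (the array left out) and 174.9 in Ins2-negative cells. Chrna1 had 179.4, 150.4 and 146.3 in Ins2-positive cells, against 231.4, 203.6 (the array left out) and 171.2 in Ins2-negative cells. For Acta1 the array left out was the highest of the 6, at 405.4. With the authors' values of all 35 arrays, Myog (-0.19, adjusted p = 0.0191), Chrna1 (-0.34, adjusted p = 0.00383) and Des (-0.35, adjusted p = 0.0162) were called lower in Ins2-positive cells with limma.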
